A study of Mus musculus with 10 samples.

Results

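Retinal ganglion cells (RGCs) captured for single-cell RNA sequencing included droplets with almost no ribosomal protein (RP) transcripts, and these droplets are described here. A droplet was called RP-poor when under 1 percent of its unique molecular identifiers (UMIs) came from the 76 RP genes of the mouse gene list. The members were chosen by their measured RP share alone, so their low RP levels are a description and not a result. Of 2871 droplets, 258 were RP-poor and 2613 were not, and the latter are called other droplets. RP genes and 9 of their copies were left out of the gene tests and levels, but counts of UMIs and of detected genes include them. Levels are given as CPM (UMIs of a gene per 1000000 UMIs outside RP genes). Any gene whose level follows RP content from droplet to droplet differs between the classes by way of this choice, so every called gene shows what goes along with RP content.

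The RGCs came from retinas of wild-type 129S1/SvImJ mice aged 12 weeks, of both sexes. Cells were bound to Thy1 antibody after macrophages and, by the methods of the paper though not by the labels, amacrine cells had been removed, 10 retinas were pooled for each batch, and 6000 cells of each batch were loaded. Of the libraries, 6 held uninjured RGCs and 4 held injured RGCs collected 2 weeks after optic nerve crush (ONC), which severs the axons of RGCs. The labels give no animals for single libraries, so p-values measure the spread between pools, which may in part be technical.

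Libraries 3 and 4 of the injured RGCs had 421 cell barcodes in common, against at most 1 in any other pair. Of these barcodes, 56 were RP-poor in both libraries, 364 were RP-poor in neither and 1 was RP-poor in injured library 4 only. The shared barcodes were dropped from injured library 4, and its remaining 50 droplets, 23 of them RP-poor, were joined to injured library 3 as injured sample 3/4. This gave 6 uninjured and 3 injured samples. Uninjured libraries 3 and 4 were also close to each other, with a median chi-square of 1.87 times the sampling noise over 14196 genes, against 3.86 between uninjured libraries 1 and 3. The pairs 1 with 2 and 5 with 6 had values of 1.82 and 1.47. Injured libraries 1 and 2 had a value of 2.28. Whether such a pair shares animals is not stated, so results are also given with these libraries summed. Total UMIs per sample ranged from 2839693 to 23180399, and single droplets held 1153 to 122182.

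Ribosomal protein mRNAs are short, abundant and long-lived, and nearly all of their copies lie in the cytoplasm, where ribosomes translate them. The nucleus holds newly made transcripts that still carry introns, which are most plentiful for genes with long introns, and long noncoding RNAs (lncRNAs) such as Malat1 and Meg3 that stay near chromatin. RGCs have large cell bodies and long axons, and their cytoplasm is rich in mRNAs for cytoskeletal proteins and for energy metabolism.

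RP-poor droplets were unevenly spread over the samples. They were 12 of 98 droplets in uninjured sample 1 (12.2%, exact 95% binomial interval 6.49 to 20.4), 11 of 103 in uninjured 2 (10.7%, 5.45 to 18.3), 33 of 363 in uninjured 3 (9.09%, 6.34 to 12.5) and 74 of 651 in uninjured 4 (11.4%, 9.03 to 14.1). Uninjured 5 held 3 of 267 (1.12%) and uninjured 6 held 1 of 201 (0.498%). Among injured samples there was 1 of 338 in injured 1 (0.296%), 1 of 273 in injured 2 (0.366%) and 122 of 577 in injured 3/4 (21.1%, 17.9 to 24.7). Thus 5 samples held nearly all RP-poor droplets, and both conditions had samples with almost none. Samples enter a test with at least 20 droplets in each class, which leaves uninjured 3, uninjured 4 and injured 3/4, and a limit of at least 5 droplets adds uninjured 1 and 2.

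**Figure D1:**
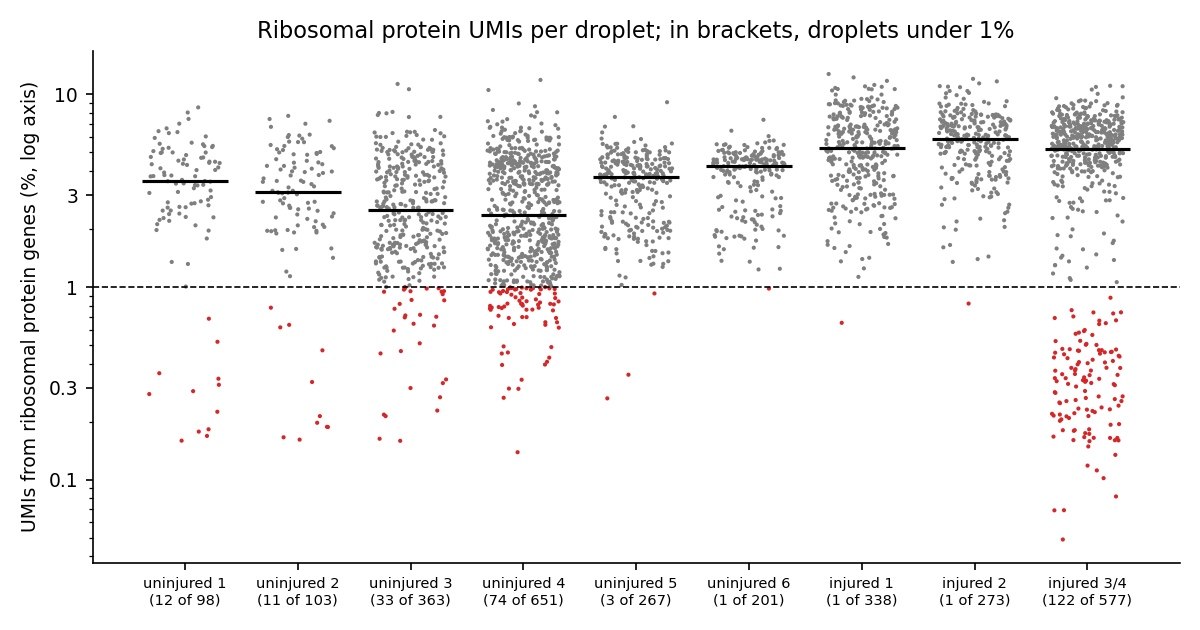
Percent of UMIs from RP genes in every droplet (points, log axis) of the 9 samples, with the median as a bar, the limit of 1 percent as a dashed line and RP-poor droplets in red. In injured 3/4 a separate group of droplets lies mostly under 0.5 percent, while in uninjured 3 and 4 many RP-poor droplets lie just under the limit.

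The RP-poor class was not equally deep in each sample. The median RP share of its droplets was 0.283% in uninjured 1, 0.214% in uninjured 2, 0.702% in uninjured 3, 0.812% in uninjured 4 and 0.326% in injured 3/4. Droplets under 0.5 percent made up 10 of the 12 in uninjured 1, 8 of 11 in uninjured 2, 11 of 33 in uninjured 3, 13 of 74 in uninjured 4 and 101 of 122 in injured 3/4. The class therefore sat near the limit in uninjured 3 and 4 and far under it in the other 3 samples. All 76 RP genes were lower in the class in each of these 5 samples, with median log2 ratios of -3.88, -3.54, -2.29, -2.12 and -4.05 in the same order, as the rule requires. Over all samples, 36 droplets lay just inside the limit (0.9 to 1 percent) and 34 just outside (1 to 1.1 percent). Genes spanning over 100 kb gave a median of 40.4% of the UMIs outside RP genes just inside and 38.9% just outside, and nuclear genes of oxidative phosphorylation gave 0.772% and 0.738%. Median UMI counts were 33588 and 26231, and nuclear lncRNAs gave 5.50% and 6.35%. Droplets on either side of the limit were thus close in the first 2 measures and less so in depth and lncRNAs.

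Depth did not separate the classes in the same way in all samples. The median UMI count of RP-poor droplets was 32710 in uninjured 1, 31224 in uninjured 2, 30737 in uninjured 3, 30761 in uninjured 4 and 10130 in injured 3/4. Other droplets of the same samples had 27132, 30334, 32016, 34776 and 14552. The class was deeper in uninjured 1 and 2 and shallower in the other 3 samples, and over those 3 the mean difference was -3239 UMIs (SD 1709, n = 3; exact two-sided sign-flip test, p = 0.25, adjusted over 5 measures 0.417). With 3 samples 0.25 is the smallest p this test can give. Over all 5 samples the mean difference was -650 (SD 4096, n = 5; exact sign-flip test, p = 0.812). After every droplet was thinned to 5000 UMIs, which left out 10 of 258 RP-poor and 21 of 2613 other droplets for having fewer UMIs, the median number of genes was 2355, 2381, 2455, 2486 and 2265 in RP-poor and 2566, 2594, 2586, 2596 and 2498 in other droplets. Fewer genes were thus detected at equal depth in 5 of 5 samples, with a mean difference of -180 (SD 54.8, n = 5; exact sign-flip test, p = 0.0625, the smallest possible with 5 samples, adjusted 0.312). At a limit of 2 percent, over 9 samples, the mean difference was -39.1 (SD 81.9, n = 9, exact sign-flip test, p = 0.188), with 2 samples higher. The detected genes include the 76 RP genes that define the classes, so both differences follow in part from the rule. How large that part is was not measured, and neither test is independent of the rule. Before thinning the median gene counts were 6452, 6420, 6436, 6832 and 3486 in RP-poor and 6412, 6824, 7011, 7184 and 4679 in other droplets.

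The question put to these droplets is how they differ in nuclear and cytoplasmic transcripts. UMI counts were summed for each class in each sample and compared within samples by the quasi-likelihood F test of edgeR, with p adjusted after Benjamini-Hochberg. Over the 3 samples with at least 20 droplets in each class, 2919 of 13348 genes (21.9%) were called at an adjusted p under 0.05. Of these, 735 (5.51%) were higher and 2184 (16.4%) were lower in RP-poor droplets, and the median log2 fold change of all genes was 0.05. Upper-quartile scaling moved that median to 0.18 and the calls to 1725 higher and 1980 lower, and DESeq2 called 1157 higher and 2066 lower. Over 5 samples the test called 6088 of 11642 genes, 2841 higher and 3247 lower. Of the 2919 genes called over 3 samples, 2846 could be retested over 5, and 2815 of them were called again in the same direction and 0 in the opposite one, though both fits share 3 samples. The higher calls depended more on the samples than the lower ones: they numbered 268 without uninjured 3, 384 without uninjured 4 and 2278 without injured 3/4, beside 1970, 1999 and 3081 lower, and 87 with 1214 lower at a limit of 1.5 percent. Leaving out injured 3/4 changed the count to 5359, and summing similar libraries, which also brings in uninjured 1 and 2, changed it to 4871. The 13348 genes tested are the background for the gene lists that follow, and a list is described by its counts and its median.

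Genes of translation that the rule did not use fell with the RP genes. Of 21 such genes tested, 17 were called lower and 0 higher, with a median log2 fold change of -2.05 against 0.05 for all genes (edgeR). Fau, which encodes a small-subunit RP fused to a ubiquitin-like protein, had 45.9, 74.8, 136, 183 and 97.0 CPM in the RP-poor droplets of uninjured 1, 2, 3, 4 and injured 3/4, and 985, 923, 751, 778 and 1197 in other droplets. The classes did not overlap, and the log2 fold change was -2.73 (SE 0.38, adjusted p = 0.0116, edgeR quasi-likelihood test, Benjamini-Hochberg). Eef1a1, the elongation factor that brings aminoacyl-tRNA to the ribosome, had 122, 126, 258, 272 and 257 against 1036, 1027, 778, 800 and 3651. Its level in other droplets of injured 3/4 stood far above that in the uninjured samples, while its levels in RP-poor droplets lay within 122 to 272. Eef1a1 fell by 2.31 on the log2 scale (SE 0.51, adjusted p = 0.0224, edgeR). Tpt1, a translationally controlled tumour protein gene, and Naca, a chaperone subunit of nascent chains, changed by -2.94 and -2.82. Gas5, a spliced lncRNA that hosts small nucleolar RNAs and carries the same kind of promoter as RP genes, changed by -2.20 (SE 0.32, adjusted p = 0.0119, edgeR), so that a noncoding RNA is among the genes that fell. Ribosome biogenesis genes, whose products work in the nucleolus, were lower to a lesser degree: 7 of 16 were called lower and 0 higher, with a median of -0.60.

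Nuclear genes of oxidative phosphorylation encode short mRNAs for subunits of the respiratory chain and ATP synthase. All 59 tested were called lower (edgeR), with fold changes from -3.09 to -0.94 and a median of -2.65. They gave 0.204, 0.226, 0.533, 0.547 and 0.148 percent of the UMIs in RP-poor droplets of uninjured 1 to 4 and injured 3/4, and 2.27, 2.16, 2.10, 2.06 and 2.21 percent in other droplets. Other droplets of these 5 samples were thus alike, while RP-poor droplets were lower in uninjured 1, uninjured 2 and injured 3/4 than in uninjured 3 and 4. Other droplets of the remaining samples differed more, with 3.02 percent in uninjured 5, 3.29 in uninjured 6, 1.91 in injured 1 and 2.14 in injured 2. Cox4i1, a subunit of cytochrome c oxidase, had 66.6, 77.5, 182, 199 and 36.1 CPM in RP-poor and 937, 916, 879, 855 and 995 in other droplets. The groups were far apart, with a log2 fold change of -2.98 (SE 0.56, adjusted p = 0.0152, edgeR quasi-likelihood test, Benjamini-Hochberg). Ndufa4 and Cox8a, which encode further subunits of cytochrome c oxidase, changed by -2.65 and -2.44. Mitochondrial RP genes, which the rule does not hold, behaved alike: 65 of 78 were called lower and 0 higher, with a median of -1.78, and Mrps33 changed by -2.24.

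Glycolytic enzyme genes were lower for 10 of 16 members and higher for 0, with a median of -1.39. Gapdh had 248, 401, 509, 581 and 72.2 CPM in RP-poor droplets of uninjured 1 to 4 and injured 3/4, and 3506, 3764, 2254, 2191 and 1273 in other droplets. Both classes were lowest in injured 3/4, and within every sample the RP-poor class was the lower one (log2 fold change -2.70, SE 0.49, adjusted p = 0.0144, edgeR quasi-likelihood test). Aldoa, the enzyme that splits fructose bisphosphate, changed by -2.18. Secretory pathway genes, whose mRNAs are translated at the endoplasmic reticulum, were called lower for 14 of 24 and higher for 1, with a median of -1.17. The ER chaperone gene Hspa5 changed by -1.37 and was not called over 3 samples (adjusted p = 0.0587) but was over 5 (adjusted p = 0.00172, edgeR quasi-likelihood test for both). Cytoskeletal and axonal genes were called lower for 21 of 25 and higher for 0, with a median of -1.59. Tmsb10, which encodes an actin-binding peptide, changed by -2.95. Map1b, a microtubule-associated protein gene with a very long mRNA, was an exception: its levels of 1271, 1574, 2005, 1764 and 1517 in RP-poor droplets lay around those of 1316, 1457, 1624, 1647 and 1422 in other droplets, and its log2 fold change was 0.15 (SE 0.29, adjusted p = 0.724, edgeR).

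**Figure D2:**
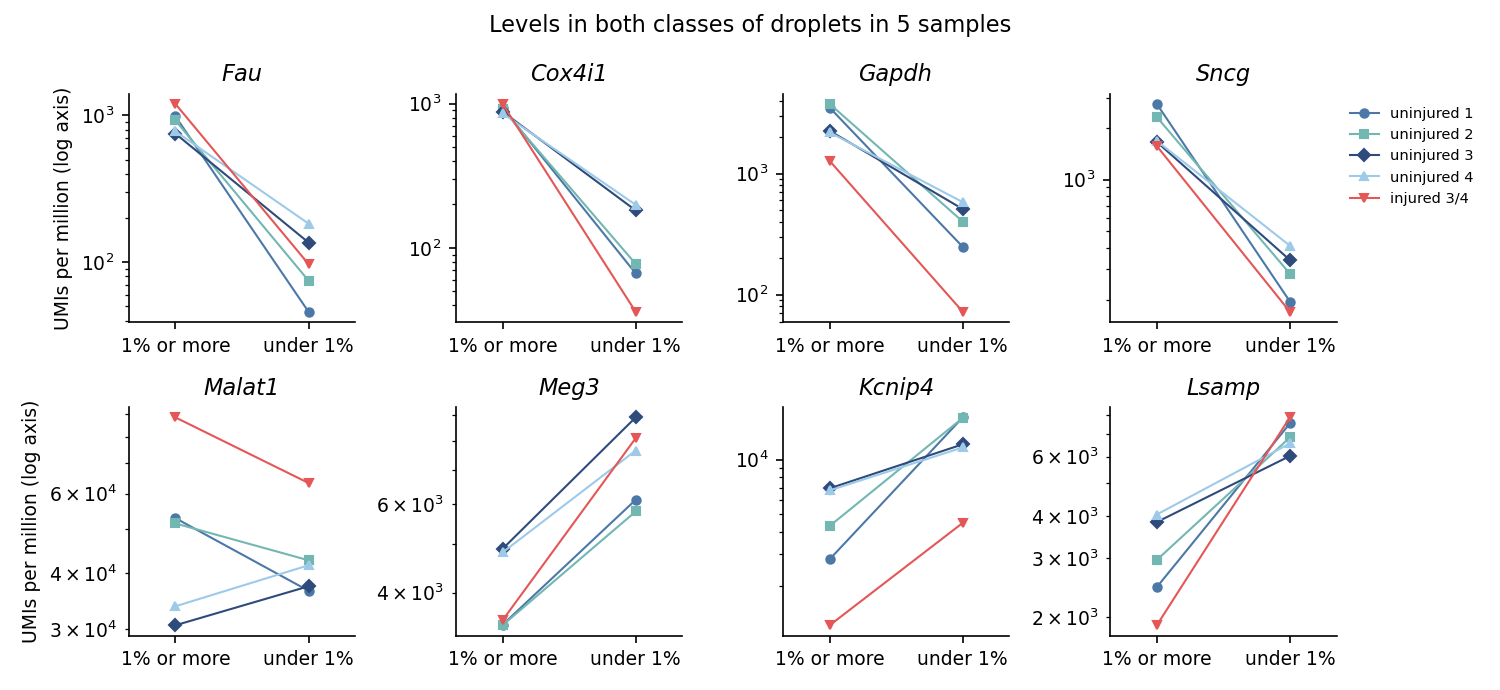
Levels of 8 genes in other droplets (left) and RP-poor droplets (right) of 5 samples, in CPM on a log axis, with 1 line per sample. Fau, Cox4i1, Gapdh and Sncg fall in every sample, Meg3, Kcnip4 and Lsamp rise in every sample, and Malat1 falls in 3 samples and rises in 2.

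Long neuronal genes, which encode adhesion, synaptic and channel-related proteins over very large introns, tended to higher values, few of them called over 3 samples. All 38 tested had a positive log2 fold change, from 0.18 to 1.53 with a median of 0.85, and 5 were called higher and 0 lower over 3 samples. Over 5 samples 29 of 38 were called higher and 0 lower, with a median of 1.00. Kcnip4, a potassium channel-interacting protein gene, had 17124, 17016, 12161, 11689 and 4480 CPM in RP-poor droplets of uninjured 1 to 4 and injured 3/4, and 2819, 4304, 6946, 6768 and 1218 in other droplets. It was higher in the RP-poor class of each sample, and injured 3/4 was lowest in both classes. Its log2 fold change was 1.14 over 3 samples (SE 0.38, adjusted p = 0.0634) and 1.60 over 5 (adjusted p = 0.00171, edgeR quasi-likelihood test for both). Lsamp, an adhesion molecule gene of the limbic system, had 7537, 6847, 6031, 6572 and 7855 against 2456, 2959, 3835, 4039 and 1892. Its RP-poor levels were close to each other across samples, and its log2 fold changes of 1.11 and 1.23 over 3 and 5 samples had adjusted p of 0.0793 and 0.00309 (edgeR). Pcdh9, a protocadherin gene, had 32.1, 2077, 3016, 3273 and 4999 against 757, 672, 1788, 1618 and 1810. It was lower in the RP-poor class of uninjured 1 and higher in the other 4 samples, with log2 fold changes of 1.06 over 3 samples (adjusted p = 0.0509) and 0.53 over 5 (adjusted p = 0.529, edgeR for both). Csmd1, a complement-control protein gene, was called over 3 samples (1.32, SE 0.30, adjusted p = 0.0244, edgeR) but not over 5 (0.53, adjusted p = 0.304). It was lower in the RP-poor class of uninjured 1, with 55.1 against 183 CPM, and of uninjured 2, with 224 against 257.

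Nuclear lncRNAs were higher in part. Of 15 lncRNAs tested, 6 were called higher and 0 lower over 3 samples, with a median of 0.85, and 11 of 14 were called higher over 5 samples. Meg3, an imprinted lncRNA that is abundant in neurons, had 6116, 5799, 8919, 7664 and 8109 CPM in RP-poor and 3452, 3445, 4886, 4807 and 3524 in other droplets of uninjured 1 to 4 and injured 3/4. The classes did not overlap, and its log2 fold change was 0.90 (SE 0.33, adjusted p = 0.0812) over 3 samples and 0.85 (adjusted p = 0.00659) over 5 (edgeR quasi-likelihood test for both). Rian, from the same imprinted locus, changed by 1.25 (SE 0.29, adjusted p = 0.0254, edgeR), and Miat, a lncRNA held in nuclear foci, by 1.34 (SE 0.28, adjusted p = 0.0199, edgeR). Snhg11, an abundant lncRNA that hosts small nucleolar RNAs, had 0.32 over 3 samples (adjusted p = 0.462) and 0.20 over 5 (adjusted p = 0.441, edgeR for both). Malat1, a lncRNA of nuclear speckles and the most abundant transcript of the list, gave 3.65, 4.27, 3.73, 4.16 and 6.33 percent of the UMIs in RP-poor droplets and 5.29, 5.15, 3.06, 3.37 and 8.85 percent in other droplets. It was lower in the RP-poor class of uninjured 1, uninjured 2 and injured 3/4 and higher in that of uninjured 3 and 4. Over the droplets of a sample, Spearman's rho between the RP share and the Malat1 share was -0.40, -0.49, -0.44, -0.47 and 0.11. Malat1 in uninjured 1 and 2 thus tended to rise as RP content fell over all droplets, opposite to its class difference. Its log2 fold change was 0.02 (SE 0.37, adjusted p = 0.976, edgeR), and its mean difference in percent over 3 samples was -0.354 (SD 1.88, n = 3; exact sign-flip test, p = 1.00, the smallest possible being 0.25). Without Malat1 the listed lncRNAs gave 1.43, 1.40, 1.62, 1.52 and 1.5 percent in RP-poor and 0.846, 0.852, 1.00, 0.970 and 0.734 percent in other droplets, which is higher in 5 of 5 samples. With Malat1 the sum was higher in RP-poor droplets of uninjured 3 and 4 only, and its mean difference was 0.291 (SD 1.78, n = 3; exact sign-flip test, p = 1.00).

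Genes of nuclear speckle proteins and splicing factors, whose mRNAs often keep introns in the nucleus, were at the level of all genes. Of 29 tested, 1 was called lower and 0 higher over 3 samples, with a median of 0.00. The 1 called was Srsf3, a splicing factor gene, at -1.40. Ddx17, a helicase gene, was the highest of the list at 0.85 and was not called over 3 samples (SE 0.26, adjusted p = 0.0528, edgeR quasi-likelihood test). Over 5 samples 6 of 29 were called higher and 5 lower, beside 2841 higher and 3247 lower of all 11642 genes tested. Neither share was above that of all genes.

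Transcripts of the mitochondrial genome did not follow those of the nuclear respiratory chain genes. They gave 2.59, 2.95, 7.0, 6.31 and 3.94 percent of the UMIs in RP-poor droplets of uninjured 1 to 4 and injured 3/4, and 3.35, 2.94, 5.75, 4.75 and 1.90 percent in other droplets. RP-poor droplets were higher in uninjured 3, uninjured 4 and injured 3/4, nearly equal in uninjured 2 and lower in uninjured 1. The mean difference was 1.62 over 3 samples (SD 0.399, n = 3; exact sign-flip test, p = 0.25, adjusted 0.417) and 0.820 over 5 (SD 1.16, n = 5; exact sign-flip test, p = 0.188). Without droplets that carry markers of another class, over 5 samples, it was -0.0133. Of the 13 genes, 0 were called in either direction over 3 samples, with fold changes from 0.25 to 0.65, and 0 over 5 samples. In the uninjured samples 3 and 4 alone, edgeR called 8 of the 13 higher, beside 2278 of 14292 genes tested there (15.9%). In the comparison over 3 samples, 5452 of all genes tested had an unadjusted p under 0.05 (edgeR). mt-Atp6, an ATP synthase subunit gene, had 4441, 5048, 13782, 12595 and 8106 CPM against 5491, 4545, 11203, 9138 and 3411. At the limit of 2 percent, over 9 samples, the mitochondrial share was higher under the limit in 7 of 9 by a mean of 1.23 (SD 0.947, n = 9; exact sign-flip test, p = 0.0156, adjusted 0.0781).

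**Figure D3:**
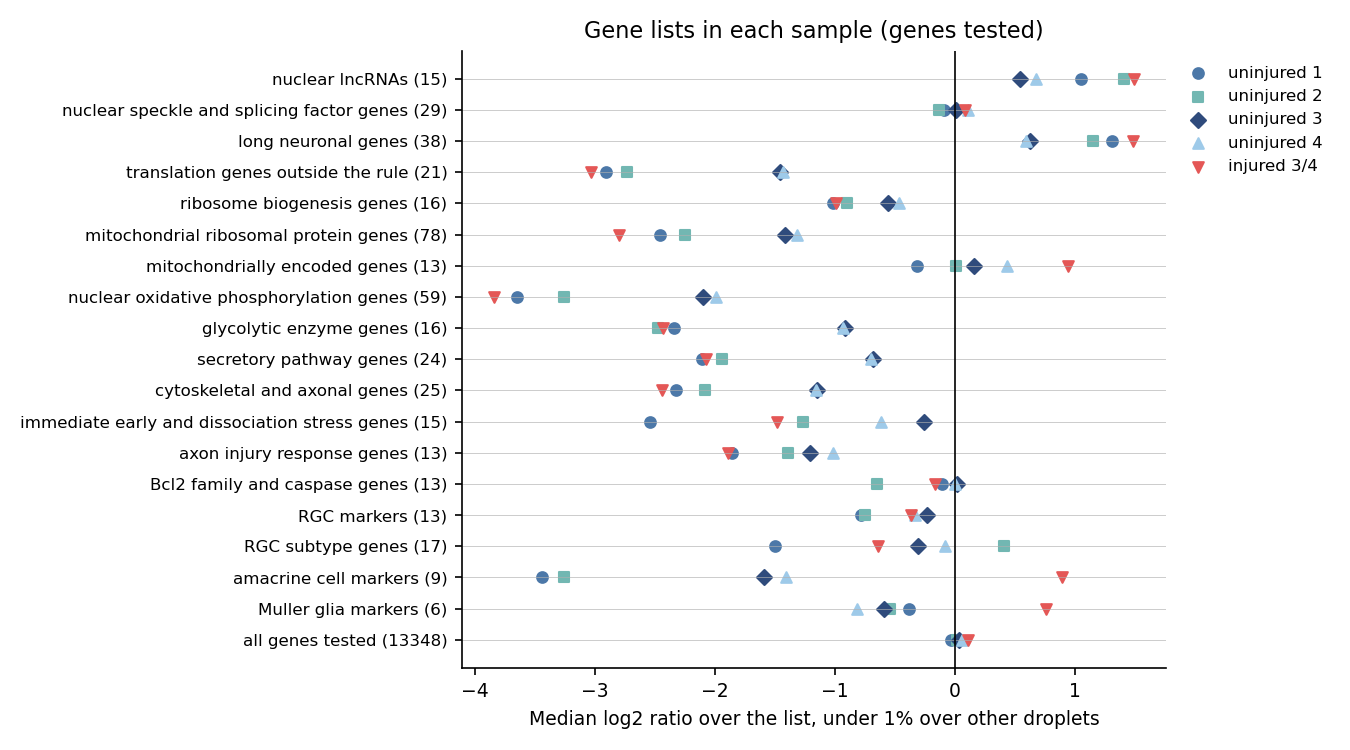
Median log2 ratio of RP-poor over other droplets for each gene list (vertical axis, number of genes tested in brackets) in 5 samples (points). Translation, oxidative phosphorylation, mitochondrial RP, glycolytic, secretory and cytoskeletal lists lie under 0 in all 5 samples, and nuclear lncRNAs and long neuronal genes lie above 0.

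Across all genes the class difference went along with gene span, the distance from the first to the last annotated base. A span was known for 13102 of the 13348 genes tested (98.2%). The median log2 fold change was -0.91 for 2518 genes under 10 kb, -0.27 for 4139 genes of 10 to 30 kb, 0.25 for 4124 genes of 30 to 100 kb, 0.58 for 1770 genes of 100 to 300 kb and 0.77 for 551 genes over 300 kb. Among genes under 10 kb, 40.3% were called lower and 0.755% higher, and among those over 300 kb 0.363% were called lower and 21.6% higher (edgeR). Each step up in span thus brought a higher median, and the same order held in each of the 5 samples. Protein-coding genes alone gave medians from -1.11 to 0.76 and lncRNAs gave medians from -0.13 to 0.85 between the shortest and the longest bin. Genes without introns, taken as those with a single exon block, had a median of -0.50 over 481 genes. Of these, 477 spanned under 10 kb, with a median of -0.50 and 23.7% called lower. All genes of that span had -0.91 and 40.3%, so at like span genes without introns fell less. Across genes, which are not independent replicates, Spearman's rho of the log2 fold change was 0.60 with span, 0.45 with summed exon length and 0.03 with average level. The methods of the paper name an early Cell Ranger with default parameters, which leaves introns out, whereas the submitters' processing notes name 7.0.1, which counts introns by default. The sources thus disagree on whether introns were counted, and intronic and exonic reads cannot be told apart in these counts.

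**Figure D4:**
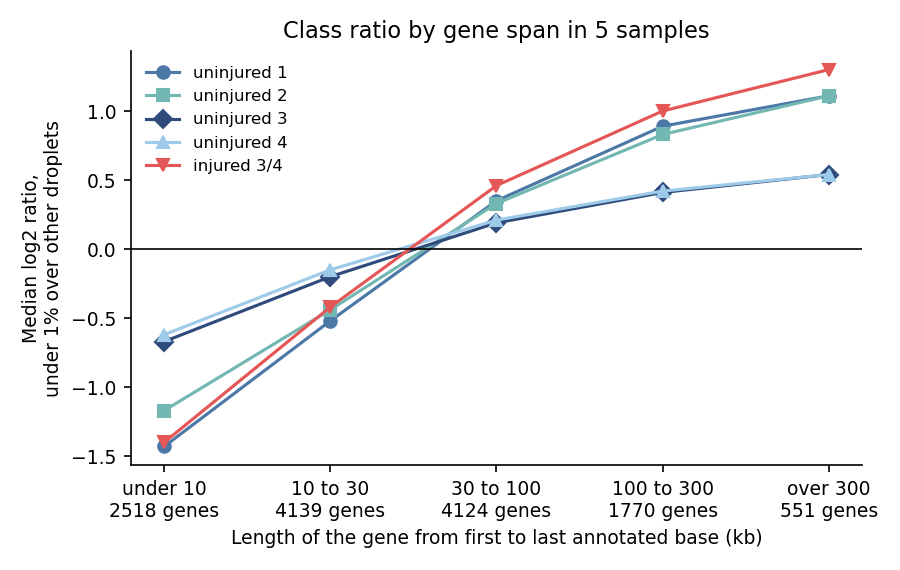
Median log2 ratio of RP-poor over other droplets (vertical axis) for genes in 5 bins of span in kb (horizontal axis), with 1 line for each of 5 samples. The medians run from between -1.43 and -0.62 under 10 kb to between 0.54 and 1.3 over 300 kb, and uninjured 3 and 4 have the flattest lines.

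As shares of the UMIs outside RP genes, genes spanning over 100 kb gave 54.8% in the RP-poor and 26.2% in the other droplets of uninjured 1. The values were 52.8% and 26.9% in uninjured 2, 43.9% and 31.2% in uninjured 3, 44.1% and 31.8% in uninjured 4, and 49.9% and 22.9% in injured 3/4. Genes under 10 kb, with mitochondrially encoded genes left out, gave 7.64% against 24.1%, 8.83% against 23.5%, 10.6% against 18.6%, 11.2% against 18.8% and 10.5% against 28.2% in the same order. Neither pair of ranges overlapped between the classes. Over the droplets of a sample, Spearman's rho between the RP share and the share from genes over 100 kb was -0.68, -0.63, -0.77, -0.81 and -0.84 in these 5 samples, over 98, 103, 363, 651 and 577 droplets. It was -0.78, -0.74, -0.67 and -0.68 in uninjured 5, uninjured 6, injured 1 and injured 2, which held almost no RP-poor droplets, so the relation also ran through droplets above the limit. Droplets of a sample share a library, and both shares come from the same UMIs.

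**Figure D5:**
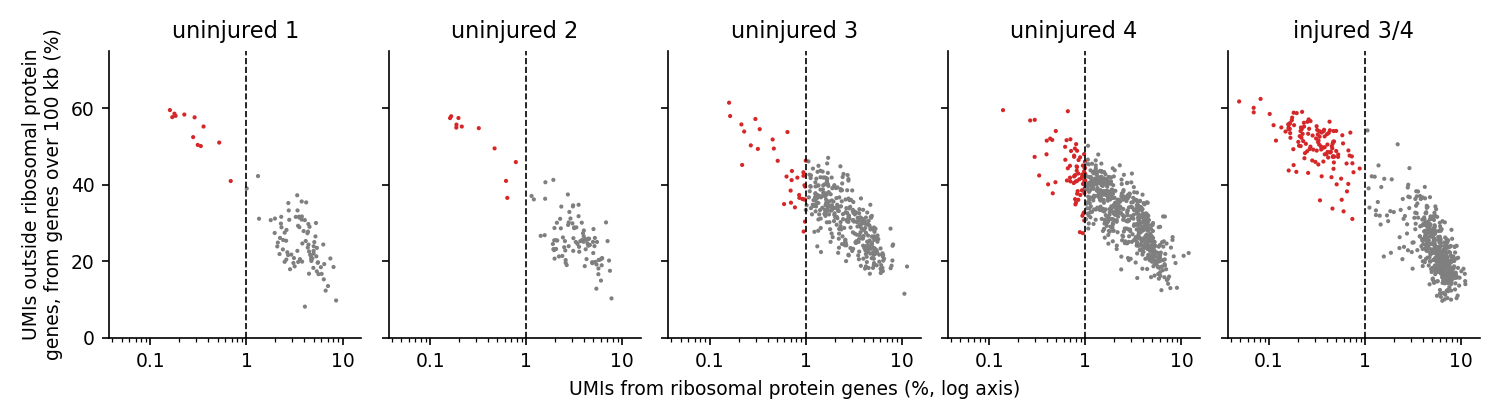
Percent of UMIs outside RP genes that came from genes spanning over 100 kb (vertical axis) against percent of UMIs from RP genes (horizontal log axis) for each droplet of 5 samples, with RP-poor droplets in red and the limit as a dashed line. The share tends to rise as RP content falls, though not evenly in all samples. No step is seen at the limit in uninjured 3 and 4, where droplets lie close together on both sides.

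Samples were also compared at like RP content. Among droplets with an RP share of 0.25 to 0.5 percent, the median share from genes over 100 kb was 52.4% in uninjured 1 (5 droplets), 52.1% in uninjured 2 (2 droplets), 51.0% in uninjured 3 (6 droplets), 49.7% in uninjured 4 (12 droplets) and 50% in injured 3/4 (58 droplets). In the same droplets oxidative phosphorylation genes gave 0.188%, 0.222%, 0.204%, 0.271% and 0.121%, Malat1 gave 2.99%, 3.68%, 1.87%, 3.04% and 5.71%, and mitochondrially encoded genes gave 3.05%, 2.60%, 5.41%, 7.98% and 3.12%. Uninjured 5, with 2 droplets there, had 50.2%, 0.240%, 1.63% and 11.8% for the same measures. Long genes were thus close in this bin, where several samples hold few droplets, and the samples were further apart in others. The share from genes over 100 kb ran from 38.8% in uninjured 2 to 47.3% in injured 3/4 at an RP share of 0.5 to 0.75 percent, and from 25.5% in uninjured 2 to 36.3% in uninjured 4 at 1.5 to 2 percent. Raising the limit to 2 percent, a choice made after the data were seen, brought in all 9 samples with at least 5 droplets in each class. There edgeR called 6432 of 12130 genes, 2914 higher and 3518 lower. Among them, 59 of 59 oxidative phosphorylation genes and 21 of 21 translation genes were lower. Of long neuronal genes 30 of 38, and of nuclear lncRNAs 10 of 14, were higher. Of the 2880 genes called over 3 samples and retested there, 2811 were called in the same direction and 0 in the opposite one, but this fit holds the same 3 samples and all of their RP-poor droplets, so much of the agreement is built in.

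The largest rises among called genes of at least moderate level were in long genes. They were Ryr3, Gm29266, Shisa9, Dpp10, Bnc2, Sgcz, Gm32647, Scn7a, Egfem1 and Sez6l, with log2 fold changes from 1.49 to 1.86 and spans from 112 to 1525 kb. Dpp10, a modulator of potassium channels on chromosome 1 of mm39, had 659, 1390, 1063, 725 and 94.3 CPM in RP-poor and 141, 270, 387, 395 and 13.7 in other droplets of uninjured 1 to 4 and injured 3/4. It was higher in the RP-poor class of all 5 samples, by 1.64 on the log2 scale (SE 0.40, adjusted p = 0.0290, edgeR quasi-likelihood test). Sgcz, a sarcoglycan gene on chromosome 8, rose by 1.53 (SE 0.27, adjusted p = 0.0134, edgeR), with 370, 224, 962, 841 and 318 against 151, 89.3, 362, 312 and 90.2. Ryr3, an intracellular calcium channel gene with the top value of 1.86, was not uniform: it was lower in the RP-poor class of uninjured 1 (16.1 against 31.2) and uninjured 2 (2.67 against 14.0) and higher in uninjured 3, uninjured 4 and injured 3/4. Gm32647 and Scn7a were also lower in the RP-poor class of uninjured 1. Gm29266, a lncRNA, had at most 10.2 in any class of the uninjured samples and 415 against 135 in injured 3/4, so its average level rests on injured 3/4, and it was slightly lower in uninjured 1 (2.30 against 2.60) and uninjured 2 (0 against 1.02).

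The largest falls were in short genes: Npy, Gng5, Gm8797, Naa38, Tnfrsf12a, Pfdn5, Grcc10, Uqcrq, Nme2 and Atp5e, from -5.34 to -3.06 and with spans from 0.49 to 7.90 kb for the 9 with a known span. Naa38, an N-terminal acetyltransferase subunit gene that spans 1.19 kb on chromosome 11, had 2.30, 2.67, 6.48, 7.41 and 2.68 CPM in RP-poor and 87.6, 74.3, 53.5, 55.0 and 63.0 in other droplets of uninjured 1 to 4 and injured 3/4. The classes were far apart in all 5 samples, and Naa38 fell by 3.36 on the log2 scale (SE 0.34, adjusted p = 0.0116, edgeR quasi-likelihood test). Npy, a neuropeptide gene, reached 448 CPM in other droplets of injured 3/4 and at most 37.8 in any other class, so its value of -5.34 rests mainly on injured 3/4. Tnfrsf12a, a cytokine receptor gene, and Gng5, a G protein subunit gene, likewise were highest in other droplets of injured 3/4, at 638 and 190, as was Gm8797, at 187 against at most 13.0 in any class of the uninjured samples. Pfdn5, Grcc10 and Nme2 overlap another gene on their own strand (Myg1, Gm45234 and Nme1nme2), so their counts could be split, and Gm8797 is a predicted gene with a single exon that may share reads with a near-identical copy.

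The authors kept cells that express Sncg, Tubb3, Rbpms and Slc17a6, which fixed the presence of these 4 markers beforehand and left only their levels to differ. Of 13 RGC markers tested, 4 were called lower and 0 higher, with a median of -0.40, and their summed level was 5832, 5666, 6867, 6416 and 4105 CPM in RP-poor and 10197, 9950, 8902, 8919 and 7589 in other droplets of uninjured 1 to 4 and injured 3/4. The summed level in RP-poor droplets was thus 0.541 to 0.771 of that in other droplets. The 4 called were Sncg, Tubb3, Pou4f3 and Nrn1. Sncg, a synuclein gene, had 195, 283, 340, 412 and 170 against 2758, 2314, 1657, 1681 and 1569 (log2 fold change -2.52, SE 0.35, adjusted p = 0.0116, edgeR quasi-likelihood test), and Tubb3, a neuronal tubulin gene, changed by -1.20 (adjusted p = 0.0409, edgeR). Nefl, a neurofilament gene, changed by -1.33 and was not called over 3 samples (adjusted p = 0.0642) but was over 5 (adjusted p = 0.00126, edgeR for both). Rbpms, an RNA-binding protein gene that marks nearly all RGCs, was higher in the RP-poor class of each sample, with 1641, 1093, 1031, 965 and 466 against 676, 695, 773, 765 and 309, and its log2 fold change was 0.43 over 3 samples (SE 0.27, adjusted p = 0.262) and 0.64 over 5 (adjusted p = 0.0239, edgeR for both). Slc17a6, a glutamate transporter gene, had 308, 396, 623, 508 and 462 against 412, 501, 499, 481 and 430, with no common direction. Genes of RGC subtypes were called lower for 3 of 17 (Opn4, Cartpt and Penk) and higher for 0, with a median of -0.27. That is near the share of all genes tested that were called lower, 16.4%.

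Markers of other retinal cells were summed in each class. Amacrine cell markers summed to 390, 476, 553, 537 and 267 CPM in RP-poor and 780, 676, 707, 821 and 185 in other droplets of uninjured 1 to 4 and injured 3/4, with Pax6, which RGCs also express, as the most abundant in each. They were lower in the RP-poor class of all 4 uninjured samples and higher in that of injured 3/4, and 1 of 9 tested was called lower (C1ql1). Muller glia markers summed to 91.8, 98.9, 206, 207 and 197 against 265, 238, 284, 302 and 321, led by Dkk3 or Clu, with 2 of 6 called lower (Rlbp1 and Clu). Bipolar cell markers, led by Prkca or Isl1, summed to 174, 136, 307, 239 and 303 against 250, 289, 307, 298 and 176, with 1 of 3 called lower (Gng13). Of all genes tested, 16.4% were called lower. Rod markers summed to 18.7 or less, cone markers to 4.59 or less, microglia and macrophage markers to 21.5 or less, astrocyte markers to 9.76 or less, endothelial and pericyte markers to 5.35 or less and red blood cell markers to 0.867 or less in any class. Of those 6 lists, 1 rod, 2 microglial and 1 astrocyte gene could be tested, and 0 were called. Red blood cell markers were at 0 in the RP-poor droplets of 4 of the 5 samples. At least 3 detected markers of some other retinal class occurred in 120 of the 258 RP-poor and 1291 of the 2613 other droplets. Leaving such droplets out kept 5 samples with at least 5 droplets in each class, a setting that was not planned, and edgeR then called 4376 of 7592 genes.

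Stress and injury genes were compared between the classes as well. Immediate early and dissociation stress genes were called lower for 3 of 15 (Jund, Ier2 and Hspa1a) and higher for 0, with a median of -0.80, and 16.4% of all genes tested were called lower. Axon injury response genes were called lower for 9 of 13 and higher for 0, with a median of -1.50. Gap43, a growth cone protein gene, had 213, 216, 189, 196 and 1041 CPM in RP-poor and 572, 571, 437, 426 and 2740 in other droplets of uninjured 1 to 4 and injured 3/4, and changed by -1.26 (SE 0.28, adjusted p = 0.0231, edgeR quasi-likelihood test). The class ratio of Gap43 was thus similar in all 5 samples although injured 3/4 was the highest in both classes. Bcl2 family and caspase genes were called lower for 1 of 13 (Bax, -1.44) and higher for 1 (Apaf1, 0.95), with a median of -0.12.

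The same comparison was made within each condition. In uninjured samples 3 and 4 edgeR called 5359 of 14292 genes (37.5%), 2278 higher (15.9%) and 3081 lower (21.6%) in RP-poor droplets. There 59 of 59 oxidative phosphorylation genes and 19 of 21 translation genes were lower, and 30 of 38 long neuronal genes and 12 of 15 nuclear lncRNAs were higher, with 1 long neuronal gene lower. In these 2 samples DESeq2 called 2604 (908 higher, 1696 lower), and edgeR 2429 with droplets thinned to 5000 UMIs (856 higher, 1573 lower). With similar libraries summed, uninjured 1 with 2 and 3 with 4 as the samples, the edgeR count was 2306. Of these, 298 were higher and 2008 lower, so that most of the higher calls were lost. Injured 3/4 was the only injured sample with enough RP-poor droplets, so there was no test, and genes past a fold of 2 were counted. Of 13183 genes 5809 passed it (44.1%), 2001 higher (15.2%) and 3808 lower (28.9%). All 59 oxidative phosphorylation genes and 19 of 21 translation genes were lower, and 33 of 38 long neuronal genes and 10 of 15 nuclear lncRNAs were higher. These lists moved in the same direction in both conditions, whereas amacrine markers had medians of -1.55 in uninjured and 0.59 in injured RGCs. With the limit at 2 percent all 3 injured samples entered, and edgeR called 1831 of 12026 genes, 343 higher and 1488 lower, with 58 of 59 oxidative phosphorylation genes and 17 of 21 translation genes lower. There 4 of 38 long neuronal genes and 1 of 17 nuclear lncRNAs were called higher and 0 lower, with medians of 0.69 and 0.55. These calls come from a test and the counts in injured 3/4 from a fold of 2, so their numbers cannot be compared.

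Whether the class difference itself differed between conditions was tested by the term for class by condition. Over uninjured 3, uninjured 4 and injured 3/4, edgeR called 3625 of 15218 genes (23.8%), 1657 with a more positive value in injured RGCs (10.9%) and 1968 with a more negative one (12.9%). This fit takes its spread from uninjured 3 and 4, which were close to each other, and assumes that the lone injured sample varies like them. With uninjured 1 and 2 added, 1 of 14147 genes was called, and 1079 had an unadjusted p under 0.05. Other settings that also bring in uninjured 1 and 2 gave 20 calls (similar libraries summed), 15 (RP-poor class limited to droplets under 0.5 percent) and 16 (limit of 2 percent, 9 samples). On the samples of the first fit, the count was already far lower with DESeq2 or with thinned droplets. Nearly all calls were lost once uninjured 1 and 2 entered. What the choices made along with these added samples contribute cannot be told apart from their entry. The fit over 5 samples also holds 1 injured sample and takes its spread from the uninjured ones, so its call cannot be put down to the condition. The gene was Tfap2b, an amacrine transcription factor gene (log2 difference 5.86, edgeR). Tfap2b had 4.59, 2.67, 4.63, 17.3 and 27.4 CPM in RP-poor and 62.0, 39.2, 50.7, 46.9 and 2.45 in other droplets. It was lower in the RP-poor class of all 4 uninjured samples and higher in that of injured 3/4, as the amacrine list was in sum, although the methods of the paper state that amacrine cells had been depleted, and the source of these transcripts was not tested.

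The injury response could be compared inside each class. Among RP-poor droplets edgeR called 4833 of 11528 genes between injured 3/4 and uninjured 3 and 4 (41.9%), 2418 higher (21.0%) and 2415 lower (20.9%) after ONC. With uninjured 1 and 2 added, 989 of 11281 were called. Among other droplets 9732 of 16139 genes were called (60.3%), 5025 higher (31.1%) and 4707 lower (29.2%), and 5375 of 15701 with uninjured 1 and 2. Summing similar libraries, with uninjured 1 and 2 among them, gave 1156 and 4761 calls. Each of these fits holds 1 injured sample and takes its spread from the uninjured samples only, which over 3 samples are the similar libraries 3 and 4, so the larger counts cannot be read as differences between animals. The injury, the library and the mCherry reporter cannot be told apart. Axon injury response genes were called higher in injured 3/4 in both classes: 15 of 15 tested in RP-poor droplets, with a median of 4.08, and 16 of 16 in other droplets, with a median of 5.11. Setting the genes without a UMI in uninjured RP-poor droplets to their bounds left the first median at 4.08. Over 5 samples 14 of 15 and 16 of 16 were called. At the limit of 2 percent, with 6 uninjured and 3 injured samples, edgeR called 1794 of 9525 genes under the limit and 6525 of 13725 at or above it, with 13 of 14 and 16 of 16 axon injury response genes higher and medians of 4.94 and 4.69. Sox11, a transcription factor gene of axon growth, had 45.9, 48.1, 21.3, 26.8 and 1514 CPM in RP-poor droplets of uninjured 1 to 4 and injured 3/4, and 37.3, 29.3, 24.7, 28.4 and 904 in other droplets. It was thus high in injured 3/4 in both classes, by 5.63 and 5.07 on the log2 scale over 5 samples (adjusted p of 4.07e-05 and 1.19e-06, edgeR quasi-likelihood test, with spread from the 4 uninjured samples only), and by 5.10 and 5.30 over 9 samples at the limit of 2 percent (adjusted p of 6.14e-07 and 3.39e-10, edgeR quasi-likelihood test). Atf3, a stress transcription factor gene, had 0, 0, 1.85, 0.412 and 272 against 0, 0.341, 0.535, 2.99 and 879.

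By fitted value, the largest rises between RP-poor droplets of the conditions were Ecel1, mCherry, Gm29374, Flnc and Hrk. Ecel1, an endopeptidase gene induced in injured neurons, had 0 UMIs in RP-poor droplets of uninjured 3 and 4 and 407 CPM in injured 3/4, which is at least 476-fold higher against a floor of 3 counts over both uninjured samples, a level of 0.855. By the same floor Gm29374, a lncRNA, was at least 189-fold and Flnc, a filamin gene, at least 109-fold higher. On the log2 scale the floor gave at least 8.89 for Ecel1, 8.11 for mCherry, 7.57 for Gm29374 and 6.76 for Flnc. Atf3, with UMIs in RP-poor droplets of uninjured 3 and 4, had a value of 8.31. The order of the genes without UMIs there is thus not established. Hrk, a Bcl2 family gene that promotes cell death, had 1.85 and 0 in RP-poor droplets of uninjured 3 and 4 and 292 in injured 3/4, and 315 in other droplets of injured 3/4. The largest falls were Chrna6, Irx4, Ly6h, Tll1 and Nrgn, from -6.03 to -5.21. Chrna6, a nicotinic receptor subunit gene, had 268, 225 and 3.34 in RP-poor droplets of uninjured 3, uninjured 4 and injured 3/4, and 221, 235 and 0.816 in other droplets. Sox11, Hrk and Chrna6 thus changed in the same direction in both classes.

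The mCherry reporter, which the control virus of the study carries and the labels do not mention, differed between the classes of injured 3/4. At least 1 UMI was found in 45 of 122 RP-poor droplets (36.9%, exact 95% binomial interval 28.3 to 46.1) and in 436 of 455 other droplets (95.8%, 93.6 to 97.5), at median depths of 10130 and 14552 UMIs. Its level was 236 and 2612 CPM. Among other droplets of injured 1 and 2, mCherry was found in 27 of 337 (8.01%) and 40 of 272 (14.7%), and all 6 uninjured libraries had 0 UMIs. Empty droplets were not analysed here, so the part of mCherry UMIs that came from ambient RNA was not measured, and how many RP-poor droplets carried the reporter themselves is not known. Intervals and floors cover counting error only.

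The share of RP-poor droplets was compared between conditions over all 9 samples. It was 7.50% ± 5.29 (SD, n = 6) in uninjured and 7.27% ± 12.0 (SD, n = 3) in the injured, so that the conditions differed by -0.232 percentage points (p = 0.893 by exact permutation of samples, two-sided, where 0.0119 is the lowest p possible). The conditions overlapped, since injured 3/4 was highest of all and injured 1 and 2 were lowest. The difference rests on injured 3/4: without it the value was -7.17, and with only the samples that hold at least 20 droplets in each class it was 10.9.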

How the data were processed

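The values used are the counts that the authors of the series deposited for 10 libraries, unnormalized UMI numbers by gene. The submitters' processing notes name Cell Ranger 7.0.1 and mm39. The labels give the v3 kit and NovaSeq, the paper's methods the v2 kit, HiSeq and an older CellRanger. Every deposited cell had at least 821 genes and at most 19.8% mitochondrial UMIs, within the limits of the paper's methods, which also asked for pan-RGC markers. Doublets were not called again; a setting without cells carrying markers of another class stands in.

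RP genes were found by symbol. Droplets under 1 percent RP UMIs were set against the others of their sample, and the members and lists were chosen with earlier results of these data known. Counts were summed per sample and class and tested with edgeR 4.0.16 in R 4.3.3 (TMM factors, filterByExpr, robust quasi-likelihood, sample as block, adjusted p under 0.05), and with DESeq2 1.42.0 and limma 3.58.1 as alternatives. The fit was checked on simulated counts of 3 samples, with the same dispersion for every gene and the same change in each sample. There edgeR called 66.7% of 99 genes changed by 1 on the log2 scale and 97% of 99 changed by 2. DESeq2 called 49.5% and 89.9%. A gene not called over 3 samples may therefore still differ. Shares and class measures were compared by exact permutation in Python 3.11.15 (numpy 2.4.6, scipy 1.17.1, pandas 2.3.3, matplotlib 3.10.9). Gene spans came from an annotation of mm39, in which 95.9% of symbols matched exactly 1 gene. Depth was 2839693 to 23180399 UMIs per sample, and binomial intervals cover counting error only.

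Genes named are taken, within each list, from those with the highest average level and those called, and by size the 10 largest rises and falls over 3 samples with the same direction in each, and the 5 each way between conditions, at an average log2 level of at least 5. Genes outside this rule (Gas5, Map1b, Slc17a6 and others given as examples) were chosen after their values were seen. Alternatives were another test, scaling, filter, class limit, set of droplets and set of samples. The planned comparison of shares used samples with at least 20 droplets in each class; this picks samples by the share itself, so all 9 samples were used and the planned value is given beside it. The paper's tests over cells were not used, since cells are not replicates.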

Additional observations from a re-analysis of the deposited data

Results flagged for a closer look

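The term for class by condition gave 3625 genes called by edgeR over uninjured 3, uninjured 4 and injured 3/4, with 1 injured sample and the spread of 2 similar uninjured libraries. The count fell to 1 with uninjured 1 and 2 added, and with these samples in too it was 20 with similar libraries summed, 15 under 0.5 percent and 16 at 2 percent. Without these added samples, the count was also far lower with DESeq2 or with thinned droplets. The genes with the largest values toward injured RGCs were Ltbp1 (log2 difference 4.32), Erbb4 (3.92), Cplx3 (3.60), Gad1 (3.18) and Olfm3 (3.14). Those with the largest values the other way were Pigbos1 (-9.84), Spcs1 (-4.81), Ndufa11 (-4.20), Prxl2b (-4.13) and Hspb1 (-4.11). Pigbos1 had 0 UMIs in RP-poor droplets of injured 3/4, so its fitted value depends on the prior count and is no bound. None of these 10 genes was called over 5 samples, where 1079 genes had an unadjusted p under 0.05, but their values stayed large there: 3.60, 4.42, 2.96, 3.69 and 3.60 for Ltbp1, Erbb4, Cplx3, Gad1 and Olfm3, and -8.88, -4.10, -3.51, -3.57 and -3.23 for Pigbos1, Spcs1, Ndufa11, Prxl2b and Hspb1. Erbb4 overlaps Gm16076 on its own strand.

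Amacrine cell markers had a median log2 ratio of RP-poor over other droplets of 0.89 in injured 3/4 and under 0 in uninjured 1 to 4, and Muller glia markers had 0.76 and under 0. These opposite directions were not tested for the lists. For Muller glia markers the direction depends on the genes taken: over the 4 that pass the filter in injured 3/4 alone the median was -0.81, and in sum the list was lower there too.

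Of 63 groups of 4 to 6 uninjured samples that were checked by Dixon's test for a sample far from the rest, 0 had one.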

How the results depend on the processing

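Limits: the main comparisons hold 3 samples, of which uninjured 3 and 4 are close to each other and injured 3/4 is the only injured one, and many RP-poor droplets of uninjured 3 and 4 lie near the limit. Counts of genes within 1.5 times the value in the text are not given again. These were chosen after seeing the data: all 9 samples for the share, the limit of 2 percent, under 0.5 against 1 percent or more, similar libraries summed, and droplets without markers of another class at 5 or more per class.

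For RP-poor against other droplets over all samples, the count of 2919 became 1301 at a limit of 1.5 percent (87 higher, 1214 lower), 4423 with injured 4 as a sample of its own, 6088 with at least 5 droplets in each class, 6432 at 2 percent, 6635 under 0.5 percent and 4871 with similar libraries summed, and 2238 to 5359 with 1 sample left out. In uninjured samples, 5359 became 2604 with DESeq2, 2429 with droplets thinned to 5000 UMIs, 3189 without droplets with other markers and 2306 with similar libraries summed. In injured samples, 5809 became 3737 with at least 10 UMIs in every sum and 1831, now from a test, at 2 percent. For the difference between conditions, 3625 became 814 with DESeq2, 1330 thinned, 1 with at least 5 droplets, 16 at 2 percent, 15 under 0.5 percent, 1 without other markers and 20 summed. Between conditions in RP-poor droplets, 4833 became 1175, 2138, 989, 1794, 677, 560 and 1156 under the same 7 settings. In other droplets, 9732 became 5189 with DESeq2, 6184 thinned, 5375 with at least 5 droplets, 5375 under 0.5 percent, 4136 without other markers and 4761 summed. The settings with at least 5 droplets, at 2 percent, under 0.5 percent, without other markers and summed also bring in uninjured 1 and 2, so their moves cannot be put down to the limit or the summing alone, and for other droplets the 0.5 percent setting is the same fit as at least 5 droplets. The cause was not tested.

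The share difference of -0.232 became 0.101 with at most 10 percent mitochondrial UMIs, 1.76 at 0.75 percent, 8.86 with injured 4 as its own sample, 3.12 with similar libraries summed, 10.3 with at least 5 droplets, 10.9 as first planned, -15.3 at 2 percent, -6.17 at 1.5 percent, -3.50 without other markers, -1.02 without injured 4 and -7.17 to 3.25 with 1 sample left out. The value with similar libraries summed is over 5 samples, with injured 1 and 2 joined as well. No exact permutation p was under 0.05. With the replicate number as a block over samples 1 to 3 of each condition the difference was -3.40, as without the block; the numbers share no stated animal or day. No paired analysis was possible for genes because only number 3 occurs in both conditions among samples with enough RP-poor droplets.

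The lncRNA difference of 0.291 became -0.378 at 0.75 percent, -0.531 with injured 4 as its own sample, -0.103 with at least 5 droplets, -0.695 under 0.5 percent, -0.376 summed, -0.988 without other markers and -0.233 to 1.32 with 1 sample left out. That of Malat1 became 0.110 at 2 percent and -0.924 to 0.730 with 1 sample left out. It was -1.50 without other markers, -1.33 under 0.5 percent, -1.23 with injured 4 as its own sample and -1.09 at 0.75 percent. It was -1.01 summed, -0.717 with at least 5 droplets, -0.546 thinned and -0.00882 at 1.5 percent. For the other measures here, settings that kept the sign are not given, apart from ranges with 1 sample left out. The UMI difference became 1963 under 0.5 percent and 5346 without other markers, and the mitochondrial one -0.0133 without other markers.

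Of 51 genes named for the class difference, the log2 value of Map1b became -0.14 at 0.75 percent and -0.06 under 0.5 percent. Malat1 became -0.13 with no filter, -0.08 with at least 10 UMIs, -0.01 with at most 10 percent mitochondrial UMIs, -0.04 thinned, -0.29 at 0.75 percent, -0.12 with injured 4 as its own sample, -0.16 with at least 5 droplets, -0.35 under 0.5 percent, -0.45 without other markers, -0.22 summed and -0.13 to 0.26 with 1 sample left out. Cplx3 became -0.14 for the difference between conditions without other markers. For RP-poor against other droplets 959 of 1097 values stayed the same, 40 were weaker, 84 stronger and 14 reversed. For the difference between conditions 121 of 169 stayed, 47 were weaker and 1 reversed, and between conditions in RP-poor droplets 164 of 169 stayed and 5 were weaker.

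A comparison of genes over droplets without markers of another class was not possible at 20 droplets, which left 1 sample, nor at 0.75 percent for the conditions, which left 2; leaving out a sample was not possible for comparisons without residual degrees of freedom.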
